A study of Mus musculus with 10 samples.

Results

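The receptors of interferon (IFN) and the kinases and transcription factors that act directly below them were examined in CT26 tumors taken before poly(I:C) hydrogel was given. The genes were the receptor chains Ifnar1, Ifnar2, Ifngr1 and Ifngr2, the Janus kinases Jak1, Jak2 and Tyk2, and the signal transducers Stat2 and Stat3. They were found by exact gene name, which gave 9 rows of the 36009 in the count table. All 9 were among the 16041 genes tested, with at least 1203 estimated counts in every tumor.

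PolyA RNA was sequenced from 10 subcutaneous tumors of CT26, a colorectal carcinoma line, grown in wild-type female BALB/c mice. Each library came from the piece removed at surgery, before any treatment, and the hydrogel was then placed on what remained. Poly(I:C) is a synthetic RNA that mimics viral RNA and induces type I IFN. By the response label, 6 tumors were responders, which regressed completely, and 4 were non-responders, whose growth was not delayed. The age of the mice was not given in the labels, and the study's methods describe young adult mice. All tumors derive from 1 cell line, and bulk RNA mixes its cells with those of the host. Libraries held 29065100 to 38042500 counts in responders and 24753800, 26563600, 23374600 and 32986500 in non-responders 1 to 4. The epithelial genes Epcam, Krt8 and Krt18 had at most 19, 14 and 3 estimated counts in a tumor, while the intestinal keratin Krt20 was at 29.1 ± 9.80 CPM (counts relative to the size of the TMM-scaled library; n = 6, SD) in responders and 52.9 ± 18.5 CPM (n = 4, SD) in non-responders.

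Type I IFN (IFN-alpha and IFN-beta) binds a receptor of IFNAR1 and IFNAR2, to which the kinases TYK2 and JAK1 are attached. The kinases phosphorylate STAT proteins, and STAT2 joins another STAT and IRF9 in the complex ISGF3, which binds the interferon-stimulated response element (ISRE) in promoters. IFN-gamma binds IFNGR1 and IFNGR2, which use JAK1 and JAK2 and lead to STAT dimers on the gamma-activated site (GAS). STAT3 is activated mainly by cytokines of the IL-6 and IL-10 families, and also by IFN. The activity of these proteins is set by phosphorylation, which RNA does not report.

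Promoter sequence was searched for the sites that these factors bind. RefSeq windows on GRCm38.p6, from 250 bases before to 50 after the start of transcription, were available for all 9 genes. The ISRE letters searched were GAAA, any 2 bases and GAAA, and the GAS letters were TTCNNNGAA, on both strands, and no match of either motif overlapped one of the other. An ISRE match was found for 1 of the 9 genes, Stat2, against 3.44% of all 32851 windows of that length. GAS matches were found for Ifnar1 and Ifnar2, against 8.3% of all windows. The other 6 genes had neither set of letters in this window. The Stat2 stretch and the receptor stretches are shown because they hold the matches, in capitals. They lie at chr10:128270248-128270367 for Stat2, chr16:91372559-91372588 for Ifnar2 and chr16:91485200-91485229 for Ifnar1, all on the plus strand. The Stat2 stretch runs from 250 to 131 bases before the start.
Stat2: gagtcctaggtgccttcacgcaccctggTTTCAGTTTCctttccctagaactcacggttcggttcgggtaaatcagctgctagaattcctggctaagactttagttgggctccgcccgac
Ifnar2: tgccaaggccTTCCTGGAAgaagagagtac
Ifnar1: ggcgggggcgTTCACGGAAggggcggggcg
A match of letters is a description and does not show that a factor was bound.

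Responders were compared with non-responders to ask whether the machinery that receives IFN differed in tumors before treatment. In short, Stat2 had the largest estimated difference (52% higher), Ifnar2 and Tyk2 were 21% and 16% higher with groups that did not overlap, Ifngr1 was 12% higher, and the other 5 genes differed by under 10%. None of the 9 passed an adjusted p of 0.05 by edgeR, where 8.06% of all genes tested did. At an unadjusted p under 0.05 there were 4 of 9 (Ifnar2, Tyk2, Stat2 and Ifngr1), all higher in responders, where 29.1% of all genes reached that level and 15.6% did so in that direction. DESeq2 called Ifnar2 and Tyk2, 2 of 9, where it called 17.6% of all genes it gave an adjusted p, and limma-voom called none, where it called 6.75% of all genes. The estimate was higher in responders for 8 of the 9, against 48.2% of all genes. It was higher for 1 of 9 with log2 CPM of Ptprc, a leukocyte gene, as a covariate, and for 4 of 9 without non-responders 1 and 4, an alternative chosen after seeing the data. The median log2 fold change was 0.13, against -0.0086 over all genes tested. Responders and non-responders did not overlap for 2 of 9 genes, Ifnar2 and Tyk2, where 10.4% of all genes did not overlap and 5.84% were separated with responders higher and 4.55% with responders lower. The p-values measure the spread between tumors, each of which came from a different mouse according to the study's methods.

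**Figure D1:**
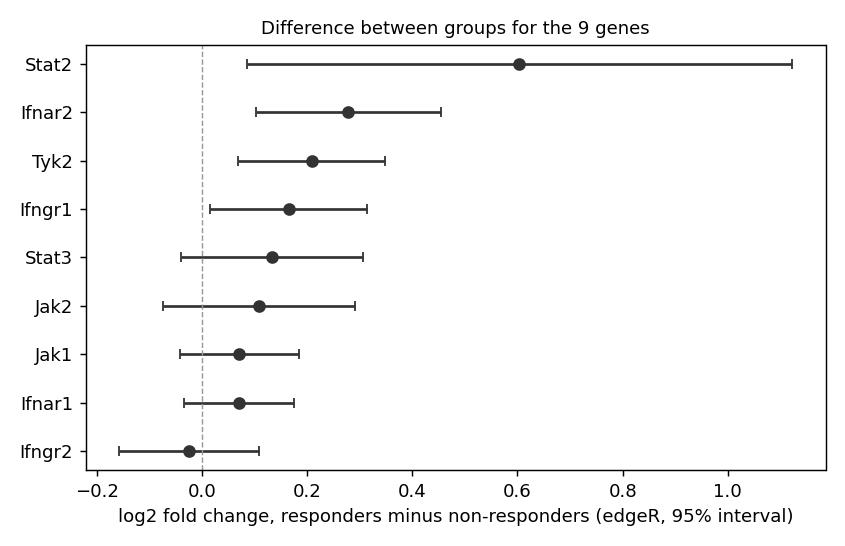
Log2 fold change of each of the 9 genes, responders minus non-responders, with its 95% interval from edgeR (6 and 4 tumors). The interval of Stat2 runs from 0.09 to 1.12 and is the widest, those of Ifnar2, Tyk2 and Ifngr1 also lie above 0, and the other 5 include 0.

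For type I IFN, the receptor chain Ifnar2 (ENSMUSG00000022971, chromosome 16, 91372783 to 91405589) binds the ligand with high affinity. It was at 48.6, 57.8, 54.6 and 52.9 CPM in non-responders 1 to 4. In responders it ranged from 59.8 to 78.2 CPM with a median of 61.3 CPM. The lowest responder lay above the highest non-responder, and responder 5 was the highest tumor. The log2 fold change was 0.28 (SE 0.08, 95% interval 0.10 to 0.45, edgeR's adjusted p = 0.0543), and 6 of 6 responders exceeded every non-responder. Without responder 4 or without non-responder 2 it passed (edgeR's adjusted p = 0.0427 and 0.0418). Those fits called 10.1% and 11.7% of all genes, against 8.06% with all 10 tumors. The unadjusted p of Ifnar2 in them was 0.0037 and 0.0038, against 0.0050 with all tumors (edgeR). Over all alternatives the adjusted p of Ifnar2 ran from 0.0161 to 0.999. Exons of the overlapping gene Gm21970, on the same strand, cover 9.46% of the merged exon length of Ifnar2, so a part of its reads cannot be assigned with certainty.

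Its partner Ifnar1 (ENSMUSG00000022967, chromosome 16, 91485238 to 91507441), the chain to which TYK2 is attached, was at 95.6, 104.7, 106.2 and 95.3 CPM in non-responders 1 to 4. Responders ranged from 100.7 to 113.3 CPM with a median of 103.9 CPM. The groups overlapped, since non-responders 2 and 3 lay among the responders. The log2 fold change of Ifnar1 was 0.07 (SE 0.05, 95% interval -0.03 to 0.18, edgeR's adjusted p = 0.355).

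Tyk2 (ENSMUSG00000032175, chromosome 9, 21104068 to 21131243), the kinase of IFNAR1 and of the IL-12 and IL-23 receptors, was at 53.3, 57.3, 62.2 and 58.0 CPM in non-responders 1 to 4. Responders ranged from 63.0 to 74.7 CPM with a median of 63.6 CPM. Every responder exceeded every non-responder, but responder 4 and non-responder 3 were separated by less than 1 CPM. Tyk2 had a log2 fold change of 0.21 (SE 0.06, 95% interval 0.07 to 0.35, edgeR's adjusted p = 0.0632). An antisense gene, 1700084C06Rik, shares 8.07% of the merged exon length of Tyk2, and without a stated strand setting its reads cannot be told from those of Tyk2.

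For IFN-gamma, the ligand-binding chain Ifngr1 (ENSMUSG00000020009, chromosome 10, 19591949 to 19610229) was at 85.1, 96.3, 81.6 and 88.1 CPM in non-responders 1 to 4. Responders ranged from 90.96 to 114.9 CPM with a median of 96.2 CPM. Non-responder 2 lay within the range of the responders, and responder 5 stood above all other tumors. Ifngr1 had a log2 fold change of 0.16 (SE 0.07, 95% interval 0.01 to 0.31, edgeR's adjusted p = 0.137), and without responder 5 it was 0.12. The signaling chain Ifngr2 (ENSMUSG00000022965, chromosome 16, 91547072 to 91565623) was at 73.9, 73.4, 78.8 and 79.1 CPM in non-responders 1 to 4 and at 68.2 to 85.2 CPM, median 74.9 CPM, in responders. Its non-responders all lay inside the responders' range, and the log2 fold change was -0.02 (SE 0.06, 95% interval -0.16 to 0.11, edgeR's adjusted p = 0.826).

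The kinases Jak1 and Jak2 had intervals that included 0. Jak1 (ENSMUSG00000028530, chromosome 4, 101152367 to 101265282), which serves both IFN receptors and many other cytokine receptors, was at 249.0, 277, 286.5 and 259 CPM in non-responders 1 to 4 and at 264 to 293 CPM, median 285 CPM, in responders. Its log2 fold change was 0.07 (SE 0.05, 95% interval -0.04 to 0.19, edgeR's adjusted p = 0.385). Jak2 (ENSMUSG00000024789, chromosome 19, 29251828 to 29313080), the kinase of IFNGR2, was at 140.3, 179, 165.6 and 140.3 CPM in non-responders and at 154 to 187 CPM, median 165.6 CPM, in responders. The groups overlapped for both kinases, with non-responders 1 and 4 the lowest tumors in each case. The log2 fold change of Jak2 was 0.11 (SE 0.08, 95% interval -0.07 to 0.29, edgeR's adjusted p = 0.411).

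Stat2 (ENSMUSG00000040033, chromosome 10, 128270559 to 128292849), the STAT specific to type I and type III IFN, varied more than any other of the 9 genes. It was at 55.9, 171, 145.9 and 111.4 CPM in non-responders 1 to 4 and at 160.3 to 206 CPM, median 189 CPM, in responders. Non-responder 2 lay above 2 of the 6 responders, while non-responder 1 was far below every other tumor. Stat2 had a log2 fold change of 0.60 (SE 0.24, 95% interval 0.09 to 1.12, edgeR's adjusted p = 0.119). It was 0.37 without non-responder 1 (edgeR's adjusted p = 0.131) and 0.82 without non-responder 2 (edgeR's adjusted p = 0.0487), so its size rested on single non-responders, and over all alternatives the adjusted p ran from 0.0487 to 0.952. The fit without non-responder 1 called 0.0982% of all genes, and the fit without non-responder 2 called 11.7%. Stat3 (ENSMUSG00000004040, chromosome 11, 100885098 to 100939540), a mediator of IL-6 and IL-10 signals, was at 240.5, 274, 305 and 236 CPM in non-responders 1 to 4 and at 270.0 to 329 CPM, median 284 CPM, in responders. Non-responder 3 was exceeded by responder 1 alone. The log2 fold change of Stat3 was 0.13 (SE 0.08, 95% interval -0.04 to 0.31, edgeR's adjusted p = 0.291).

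**Figure D2:**
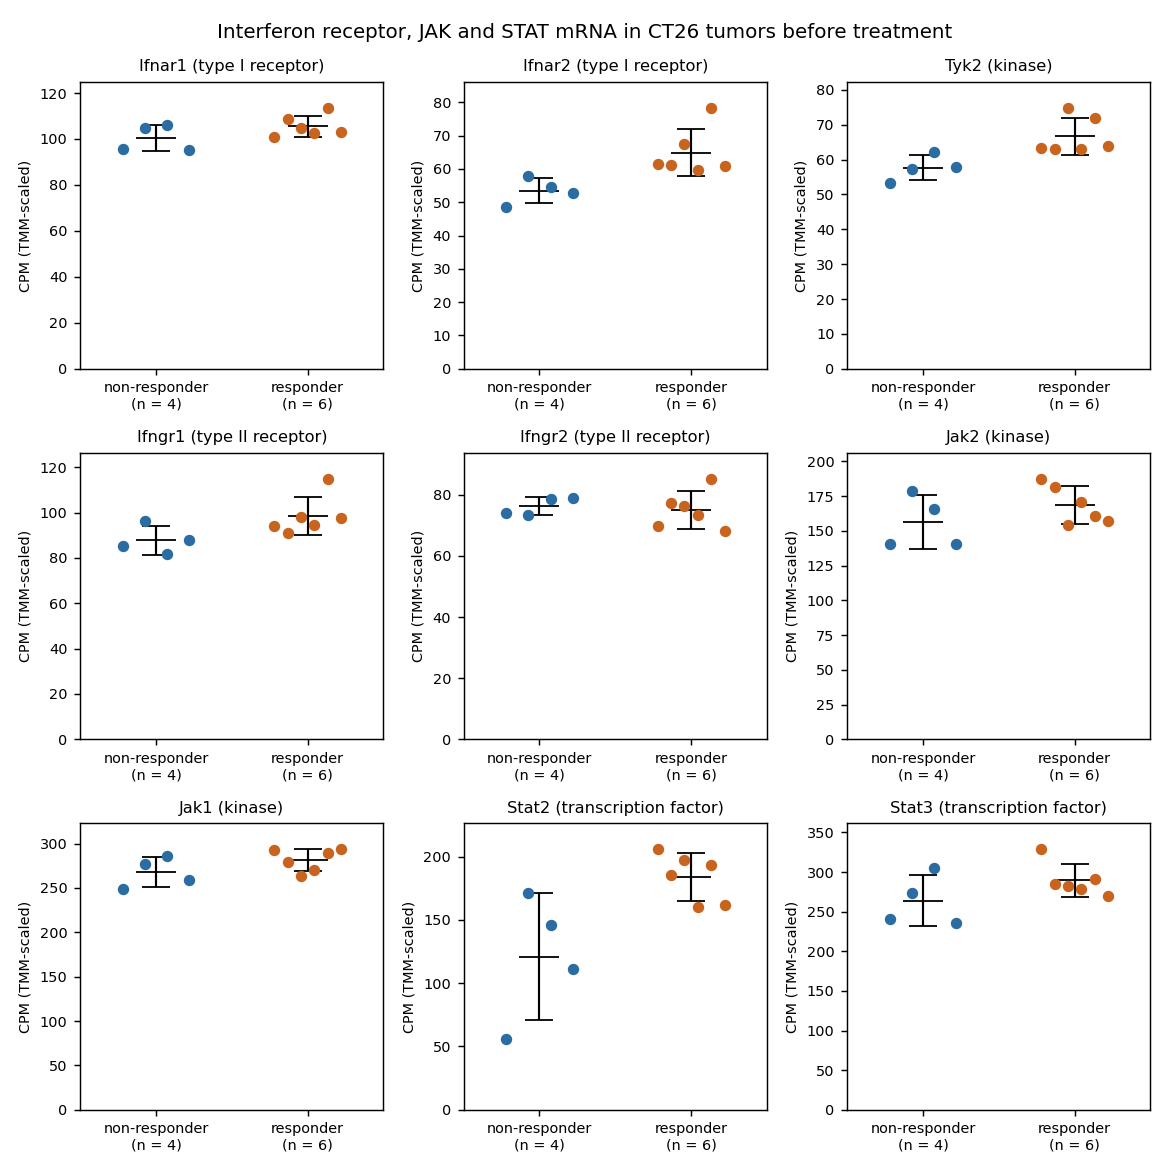
TMM-scaled CPM (y axis, from 0) of each gene in the 4 non-responders (blue) and 6 responders (orange), with a point for each tumor, drawn from left to right in order of tumor number, and the mean and SD as a cross-bar and whiskers. Ifnar2 and Tyk2 are the genes whose groups do not overlap, and the spread of the non-responders is widest for Stat2, from 55.9 to 171 CPM.

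The tumors at the extremes were not the same for all 9 genes. Non-responder 1 had the lowest level for 5 genes (Ifnar2, Jak1, Jak2, Tyk2 and Stat2) and among the lowest 3 for 8 genes. Non-responder 4 was the lowest for Ifnar1 and Stat3 and also among the lowest 3 for 8. Non-responders 2 and 3 had mean ranks of 6 and 5.56 of 10 over the genes, where 1 is the highest level, close to the 6.11 of responder 4 and the 5.44 of responder 6. Responder 5 was the highest tumor for 4 genes, which were all 4 receptor chains, and responder 1 for Jak2, Stat2 and Stat3. The coefficient of variation over the 10 tumors was 5.31% for Ifnar1 and 5.52% for Jak1, the steadiest genes, and 28.7% for Stat2, whose highest tumor was 3.68 times its lowest. Without non-responders 1 and 4, edgeR called 0 of 9 genes and also 0 of all 16540 tested. An unadjusted p under 0.05 was reached by 0 of 9, where 16.7% of all genes reached it, and the estimate was higher in responders for Ifnar2, Ifngr1, Tyk2 and Stat2. In that fit the log2 fold changes of Ifnar2, Tyk2 and Stat2 were 0.21, 0.16 and 0.21 (edgeR's adjusted p = 0.318, 0.333 and 0.332).

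**Figure D3:**
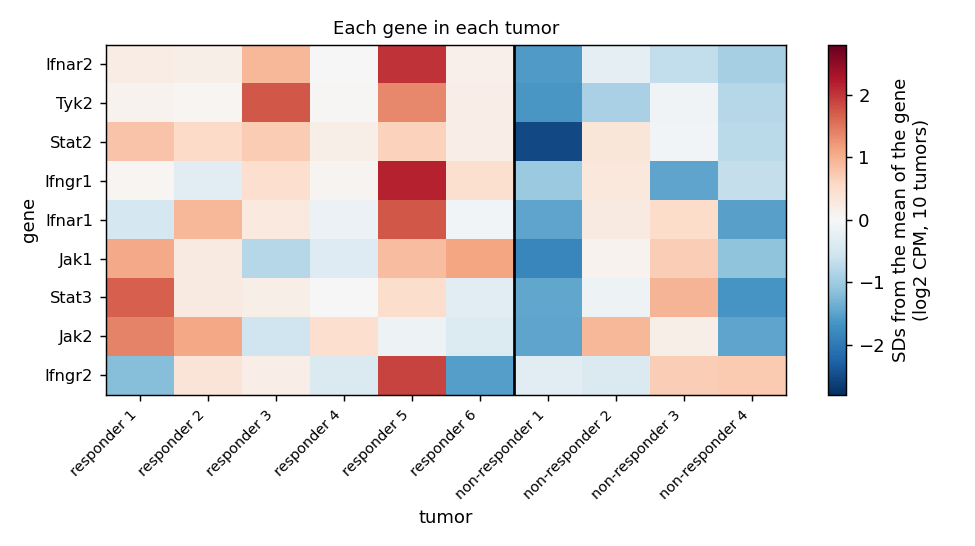
Log2 CPM of each gene (rows) in each tumor (columns), as the number of SDs from the mean of that gene over the 10 tumors, with responders left of the line. Non-responder 1 is low for most genes, non-responders 2 and 3 are mixed, and responder 5 is high for the 4 receptor chains.

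Partners of a receptor or family were compared within each tumor, where depth cancels, as log2 ratios of estimated counts. The Ifnar2 to Ifnar1 ratio was -0.98, -0.86, -0.96 and -0.85 in non-responders 1 to 4 and -0.83 to -0.54, median -0.73, in responders. All 6 responders lay above all non-responders, so that Ifnar2 counts were 0.61 times those of Ifnar1 in responders and 0.53 times in non-responders (difference of means 0.20 on the log2 scale, two-sided exact permutation p = 0.0143, adjusted p = 0.0357 over 5 ratios). The Stat2 to Stat3 ratio was -2.10, -0.68, -1.07 and -1.08 in non-responders 1 to 4 and -0.80 to -0.52, median -0.65, in responders. Non-responder 2 lay within the responders and the other 3 below them (difference 0.58, two-sided exact permutation p = 0.0143, adjusted p = 0.0357). Without non-responder 1 the difference in the Stat2 to Stat3 ratio was 0.28. Each of these calls fell short of an adjusted p of 0.05 in 6 of the 10 fits that left out a tumor (responders 1, 3 or 5 or non-responders 1, 3 or 4), with adjusted p up to 0.0893 in designs with fewer splits, although the unadjusted exact p stayed at 0.0357 or less.

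For IFN-gamma the ratio was taken with the signaling chain over the ligand-binding chain, the reverse of Ifnar2 to Ifnar1, so a lower value means relatively more of the ligand-binding chain Ifngr1. Ifngr2 to Ifngr1 was -0.20, -0.39, -0.05 and -0.16 in non-responders 1 to 4 and -0.52 to -0.24, median -0.40, in responders. The mean was 0.19 lower in responders, with non-responder 2 among them, and did not pass (two-sided exact permutation p = 0.0333, adjusted p = 0.0556). Leaving out responder 2 or non-responder 2 brought it past the threshold, with differences of -0.22 and -0.25 (exact permutation, adjusted p = 0.0397 and 0.0298). It did not pass in 8 of the 10 fits that left out a tumor (exact permutation, adjusted p up to 0.179). The Tyk2 to Jak1 ratio was -2.08 ± 0.15 in responders (n = 6, SD) and -2.22 ± 0.05 in non-responders (n = 4, SD), a difference of 0.13 (two-sided exact permutation p = 0.105, adjusted p = 0.131). The Jak2 to Jak1 ratio was -0.74 ± 0.12 against -0.78 ± 0.11, a difference of 0.04 (two-sided exact permutation p = 0.6, adjusted p = 0.6). The smallest p that the 210 splits allow is 0.00476.

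**Figure D4:**
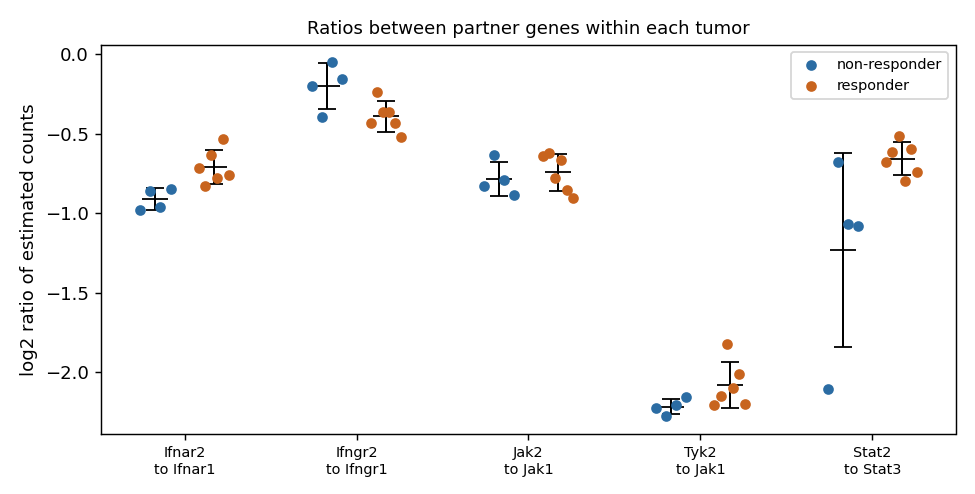
Log2 ratio of estimated counts of partner genes within each tumor (points), with the mean and SD of the 4 non-responders (blue) and the 6 responders (orange). Ifnar2 to Ifnar1 is higher in every responder, Ifngr2 to Ifngr1 has a lower mean in responders, and the Stat2 to Stat3 ratio of non-responder 1, at -2.10, is the lowest of its kind.

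Levels can be compared between genes only per length, here as CPM per kilobase (kb) of merged exons. Over the 10 tumors the order was Jak1 at 38.2 CPM per kb, Ifngr1 at 33.1, Jak2 at 32.5, Stat3 at 29.3, Stat2 at 26.8, Ifngr2 at 20.05, Ifnar2 at 18.1, Ifnar1 at 17.4 and Tyk2 at 9.19. Several neighbors in this order could not be separated. Ifngr1 exceeded Jak2 in 5 of 10 tumors, Stat3 exceeded Stat2 in 5, Ifnar2 exceeded Ifnar1 in 6, and Ifngr2 exceeded Ifnar2 in 7. Tyk2 was below Ifnar1 in 10 of 10 tumors, and Jak2 was above Stat3 in 10 of 10. Tyk2 was at the 64.5th percentile of tested genes per length and the other 8 between the 80.0th and the 92.2nd. In responders Stat2 was at 31.0 ± 3.21 CPM per kb (n = 6, SD), near Stat3 at 30.4 ± 2.16, and in non-responders at 20.4 ± 8.41 (n = 4, SD) against 27.7 ± 3.41. Dividing by the longest transcript instead placed Stat3 second and Stat2 above Jak2, and moved Ifnar1, at 26.5 CPM per kb, above Ifngr2 at 20.4 and Ifnar2 at 19.8, which reverses the order of Ifnar2 and Ifnar1. By the longest transcript Stat2 in responders was at 41.8 ± 4.33 CPM per kb (n = 6, SD), below Stat3 at 47.9 ± 3.40. With either length Jak1 was first and Tyk2 last.

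**Figure D5:**
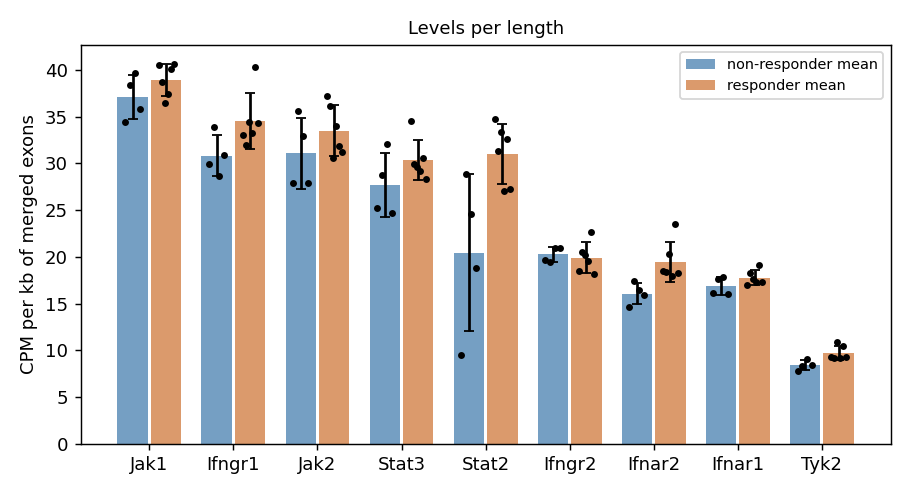
CPM per kb of merged exons for the 9 genes in descending order of their mean over 10 tumors, with bars for the mean of 4 non-responders (blue) and 6 responders (orange), SD whiskers and a point for each tumor. Jak1 leads at 38.2 and Tyk2 is lowest at 9.19 CPM per kb, and the groups differ most for Stat2.

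In the genome, Ifnar2, Ifnar1 and Ifngr2 lie in a cluster on chromosome 16 of GRCm38, with Il10rb, a shared chain of the IL-10 and type III IFN receptors, between Ifnar2 and Ifnar1. Il10rb is named here for its position, but it was chosen after its values were seen. It was at 52.8 ± 7.03 CPM in responders (n = 6, SD) and 44.2 ± 2.82 CPM in non-responders (n = 4, SD), a log2 fold change of 0.26 (SE 0.09, edgeR's adjusted p = 0.0938). Along the plus strand from 91372783 to 91565623 the log2 fold changes were thus 0.28 for Ifnar2, 0.26 for Il10rb, 0.07 for Ifnar1 and -0.02 for Ifngr2, and none passed. Whether these neighbors differed from each other was tested only through the ratio of Ifnar2 to Ifnar1.

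The ligands of these receptors were scarce in the libraries. Of 21 IFN genes listed, Ifng alone had enough counts to be tested. Ifng was at 3.16 ± 1.35 CPM in responders (n = 6, SD) and 1.26 ± 0.86 CPM in non-responders (n = 4, SD; log2 fold change 1.33, SE 0.49, edgeR's adjusted p = 0.102). Of 13 IFN-alpha genes, 9 had no count in any tumor, which allows up to 3 counts a library, or 0.0783 to 0.130 CPM for counting error alone. The other 4 IFN-alpha genes had at most 2.02 estimated counts in a tumor, and their near-identical sequences make the assignment uncertain.

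Other genes of the pathway were described from fixed lists, with no test of a list, beside the 4.71% of all genes called higher and 3.35% called lower. Of 7 other JAK, STAT and ISGF3 genes, the estimate was higher in responders for 7 and Stat5b, a STAT of growth hormone and IL-2 signals, was called, at 75.1 ± 2.68 CPM in responders (n = 6, SD) and 66.6 ± 1.84 CPM in non-responders (n = 4, SD; log2 fold change 0.17, SE 0.04, edgeR's adjusted p = 0.0321). Irf9, the DNA-binding partner of STAT2, was at 79.0 ± 4.14 against 60.2 ± 15.9 CPM (log2 fold change 0.39, SE 0.14, edgeR's adjusted p = 0.102). Of 14 related receptor chains tested, 1 was called. This was Il10ra, the ligand-binding chain of the IL-10 receptor, at 116 ± 21.2 against 74.1 ± 17.02 CPM (log2 fold change 0.65, SE 0.16, edgeR's adjusted p = 0.0401). Csf2rb, the common chain of the GM-CSF, IL-3 and IL-5 receptors, had a log2 fold change of 0.29 (SE 0.09, edgeR's adjusted p = 0.0765).

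Genes that restrain JAK-STAT signaling did not share a direction. Of 19, the estimate was higher in responders for 11, and 2 were called. These were the phosphatases Ptpn6 (SHP-1), whose log2 fold change was 0.54 (SE 0.14, edgeR's adjusted p = 0.0408), and Ptprc (CD45), with 0.60 (SE 0.15, edgeR's adjusted p = 0.0413), and both are also markers of leukocytes. The median log2 fold change of the list was 0.03.

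Targets of the pathway were listed by arm, with no test between the arms. For 18 type I IFN targets the estimate was higher in responders for 18, the median log2 fold change was 0.55 and 1 was called, Bst2 (tetherin, which retains budding virus), at 202 ± 12.7 against 138 ± 33.6 CPM (log2 fold change 0.55, SE 0.13, edgeR's adjusted p = 0.0378). Summed over the type I list, non-responder 1 was at 500.1 CPM, the other non-responders at 839.6 to 1207 CPM and responders at 1161 to 1502 CPM, so that non-responder 2, at 1207 CPM, lay within the responders. Ifi44 had a log2 fold change of 0.81 (SE 0.25, edgeR's adjusted p = 0.064). For 17 IFN-gamma targets the estimate was higher for 17, the median was 0.85 and 1 was called, Ciita, the master regulator of MHC class II genes, at 109 ± 16.1 against 52.6 ± 23.7 CPM (log2 fold change 1.05, SE 0.27, edgeR's adjusted p = 0.0423). Summed over the IFN-gamma list, non-responder 1 was at 918 CPM, the other non-responders at 2520.0 to 4448 CPM and responders at 4329 to 6357 CPM, with non-responder 2, at 4448 CPM, again within the responders. The adhesion molecule Icam1 had a log2 fold change of 0.56 (SE 0.17, edgeR's adjusted p = 0.0596). For 16 STAT3 targets the estimate was higher for 12, the median was 0.11 and 2 were called. Fgl2, a secreted immunoregulatory protein, was at 181 ± 26.2 against 90.98 ± 41.7 CPM (log2 fold change 0.99, SE 0.26, edgeR's adjusted p = 0.0453), and Mcl1, an anti-apoptotic BCL-2 relative, at 320.2 ± 16.2 against 283 ± 11.4 CPM (log2 fold change 0.18, SE 0.05, edgeR's adjusted p = 0.0478). The median log2 fold change of the 9 receptors, JAKs and STATs was 0.13, with single genes from -0.02 for Ifngr2 to 0.60 for Stat2. It was not tested against the medians of the target lists.

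The genes whose log2 CPM over the 10 tumors was most like that of each of the 9 were found among 13724 genes with a mean of at least 1 CPM. Pearson's r is given as a description, with no p, and the points share the libraries and the difference between the groups. Stat2 was followed most closely, by the IFN-inducible genes Parp12 and Oasl2 (r = 0.998 and 0.997), and r was 0.968 and 0.958 without non-responders 1 and 4, the tumors farthest from its median. Ifngr1 was most like Slc8b1 and Cln8 (r = 0.989 and 0.951), and Ifnar2 was most like the lysosomal enzymes Ctso and Acp2 (r = 0.986 and 0.985). The closest genes were Ankrd44 and Gm48774 for Tyk2 (r = 0.962 and 0.971), Tent5c and Peds1 for Jak1 (r = 0.968 and 0.960), Plekha2 and Pfkp for Stat3 (r = 0.949 and 0.949), H60b and Sar1b for Ifnar1 (r = 0.947 and 0.946) and Fcer2a and Glrx for Jak2 (r = 0.940 and 0.932). For Ifngr2 they were 1600012H06Rik and Slc35a2 (r = 0.880 and 0.874), the loosest match of the 9. Among the 36 pairs of the 9 genes themselves, r ran from -0.24 (Ifngr2 and Jak2) to 0.90 (Ifnar2 and Ifngr1), and Ifnar2 and Tyk2 had an r of 0.89.

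Genes that mark leukocytes, macrophages, inflammatory monocytes, cytotoxic lymphocytes, NK cells, muscle and fat included some called higher in responders. In bulk tissue more cells of a type and more RNA per cell cannot be told apart. The summed level of 6 leukocyte genes was 1466 to 2250 CPM in responders and 929 to 1371 CPM in non-responders, with 6 of 6 genes not overlapping and 3 called higher. Of all genes, 5.84% were separated with responders higher and 4.71% were called higher. Of 10 macrophage genes 7 were called higher, with sums of 3069 to 4563 against 2122 to 2893 CPM. Csf1r and Mertk were not called (log2 fold change 0.24 and 0.03), and Mrc1 had a lower estimate (log2 fold change -0.13). Summed levels were 45.1 to 154 against 23.3 to 55.4 CPM for 7 T cell genes and 52.5 to 105 against 14.3 to 45.1 CPM for 6 NK cell genes, of which 0 and 2 were called. Of 7 CD8 and cytotoxic lymphocyte genes 2 were called higher, Cd8b1 and Nkg7, with sums of 145 to 329 against 31.2 to 149 CPM. Of 5 inflammatory monocyte genes tested 1 was called higher, Ly6c2, and the 6 listed summed to 190 to 279 against 104 to 191 CPM. Sums of 7 skeletal muscle genes were 403 to 1379 CPM in responders and 360.1 to 472 CPM in non-responders, and sums of 6 adipocyte genes were 16.4 to 54.6 against 8.85 to 19.8 CPM. Responder 5, the tumor with the highest level of all 4 receptor chains, had the highest sums of leukocyte, macrophage, T cell, NK cell and skeletal muscle genes, and non-responder 1, the lowest tumor for Ifnar2, Tyk2 and Stat2, had the lowest sums of leukocyte, macrophage, T cell and NK cell genes. With log2 CPM of Ptprc added to the fit, the log2 fold changes of Ifnar2, Tyk2, Ifngr1 and Stat2 were -0.0027, 0.05, -0.0020 and -0.15 (edgeR's adjusted p = 0.999, 0.962, 0.999 and 0.952). Ptprc itself was 0.60 higher in responders on the log2 scale, and in that fit edgeR called 0 of 16041 genes, with 845 at an unadjusted p under 0.05. The estimate was higher in responders for 2 of 7 fibroblast genes, of which Fap was called lower (log2 fold change -0.78), for 1 of 6 neutrophil genes and for 6 of 6 endothelial genes, with none of the neutrophil or endothelial genes called. Of 7 epithelial and colorectal genes tested, 2 had a higher estimate (Muc2 and Lgals4) and 0 were called by edgeR (3 at an unadjusted p under 0.05). The 12 on the list summed to 26.8 to 52.7 CPM in responders and 50.2 to 94.7 CPM in non-responders. Krt20 made up most of the mean sum in each group, at 29.1 CPM in responders and 52.9 CPM in non-responders. The part of muscle and adipose tissue in these results was not tested.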

How the data were processed

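PolyA RNA of 10 CT26 tumors was sequenced as 150 bp paired-end reads. The authors reviewed the reads with FastQC, estimated transcript abundance with Kallisto and summed it to genes with tximport on mm10 (GRCm38). The annotation release, scaling option and strand setting are not given in the sources used here. The authors deposited these estimated counts per gene (expected counts, not whole for 44.8% of values), which were rounded. Kallisto splits reads among transcripts that share sequence. The reads are from BALB/c mice and the reference from another strain.

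Counts were analyzed in R 4.3.3 with edgeR 4.0.16 (filterByExpr with minimum count 10 and total 15, TMM, quasi-likelihood test, two-sided), with Benjamini-Hochberg adjustment over all 16041 genes and a threshold of 0.05. CPM was computed by edgeR with the TMM-scaled library size, log2 CPM used a prior count of 2, and SE is the absolute log2 fold change over the root of the F statistic. DESeq2 1.42.0, limma 3.58.1 (voom), DESeq2 size factors, other filters, a Ptprc covariate and leaving out tumors were alternatives. The code was tested on simulated data. Ratios were tested by exact permutation of the group labels. Groups came from the response label, and tumors were numbered in accession order. Labels gave no batch. Lengths and coordinates came from GENCODE M21, and promoters from RefSeq. The 9 genes, lists and tests were chosen with earlier results of these data known. Named genes were the 9, per list those called or, with fewer than 2, the 2 of smallest p, and per gene the 2 with the highest r. Exceptions chosen after seeing values are Il10rb and the markers of tissue identity.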

Additional observations from a re-analysis of the deposited data

Results flagged for a closer look

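A tumor far from the others was looked for in 28 sets of values (9 genes and 5 ratios in each response group). It was found in 2, where chance gives about 1.4. Ifngr1 in responder 5 was at 114.9 CPM against 90.96 to 98.0 CPM in the other responders, a gap to the nearest of 0.7047 of the group's range. Stat3 in responder 1 was at 329 CPM against 270.0 to 292 CPM in the other responders, a gap of 0.6285 of the range. Responder 5 also had the highest summed levels of leukocyte and macrophage genes (2250 and 4563 CPM), and responder 1 did not (1695 and 3588 CPM). The part of these cells in either value was not tested.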

How the results depend on the processing

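No gene of the 9 was called by edgeR with TMM, with DESeq2 size factors, with no filter, with the study's filter on its time course, with limma-voom or with the Ptprc covariate, while DESeq2 called 2 (Ifnar2 and Tyk2). Leaving out a tumor gave 0 to 2 called genes, 2 to 5 with an unadjusted p under 0.05, 8 to 9 with a higher estimate in responders, and 2 to 4 whose groups did not overlap, a count that leaving out a tumor cannot lower. The highest counts of called, unadjusted and separated genes came without non-responder 2. In that fit edgeR called 11.7% of all 16238 genes, and 4965 had an unadjusted p under 0.05. The share of all genes that did not overlap is not given for fits without a tumor. With the Ptprc covariate, 0 had an unadjusted p under 0.05 and 1 (Tyk2) had a higher estimate. The sign turned for Ifnar1 (-0.063), Ifnar2 (-0.0027), Ifngr1 (-0.0020), Jak1 (-0.028), Jak2 (-0.029), Stat2 (-0.15) and Stat3 (-0.034), on the log2 scale, and the cause was not tested. Without non-responders 1 and 4, chosen after seeing the data, 0 had an unadjusted p under 0.05, 4 had a higher estimate, and the sign turned for Ifnar1 (-0.00072), Jak1 (-0.0030), Jak2 (-0.033) and Stat3 (-0.0025). Over fits that left out a tumor, Ifngr2 ran from -0.064 to 0.0021 (without responder 6). In the same fits the difference in ratio was 0.17 to 0.23 for Ifnar2 to Ifnar1, -0.25 to -0.14 for Ifngr2 to Ifngr1, 0.0071 to 0.09 for Jak2 to Jak1, 0.08 to 0.16 for Tyk2 to Jak1 and 0.28 to 0.76 for Stat2 to Stat3. Of all genes, edgeR called 1293 of 16041, against 2602 of 14794 by DESeq2, 931 of 25768 with no filter and 0 with the Ptprc covariate (845 at an unadjusted p under 0.05). Leaving out a tumor gave 0 (without non-responder 4, with 4106 at an unadjusted p under 0.05) to 1897 (without non-responder 2). Leaving out non-responders 1 and 4 gave 0, with 2766 unadjusted. No paired analysis was possible because the numbers in the labels are unique to each tumor and shared by no pair of groups. The lowest count of the 9 genes in a tumor was 1203, and the part of counting error in the spread between tumors was not tested. Of 21 IFN genes, 20 had too few counts to be tested, and the part of depth in this was not tested.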
